A study of Sus scrofa with 24 samples.

Results

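The genes described are those of glycolysis, glycogen metabolism and the pentose phosphate pathway, taken by symbol from a list of 43 and measured in the back muscle of 24 pigs. The deposited table holds 37 of the 43 symbols, in 122 transcripts, out of 11954 genes in all. RNA was sequenced from 12 pigs of high and 12 pigs of low intramuscular fat (IMF), the fat stored within the muscle itself. All 24 were Duroc x Luchuan F1 animals from 1 population of 265, bred from 8 Duroc boars and 112 Luchuan sows, on shared feed, 1 farm and 1 abattoir, slaughtered at 210 ± 6 days. No animal carried a treatment or an engineered allele. The labels give neither sex nor the measured fat content, so each group is known only by its class. The sample was whole longissimus dorsi taken 25 minutes after death, and so held every cell type of the muscle.

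Skeletal muscle stores glucose as glycogen and burns it through glycolysis. Glycogen phosphorylase, switched on by phosphorylase kinase, releases glucose 1-phosphate, which phosphoglucomutase passes into glycolysis, and the last glycolytic steps yield ATP and pyruvate, which lactate dehydrogenase turns into lactate. Fast-twitch fibres rely on this route most. After slaughter the same route acidifies the meat. The pentose phosphate pathway branches off at glucose 6-phosphate and supplies NADPH, which fat-making cells use to build fatty acids.

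Values are FPKM, fragments scaled to transcript length and library size, summed over a gene's listed transcripts. Genes can be set side by side only as far as the listed transcripts cover each of them, which was not tested. Each listed transcript is above 0 in at least 19 of the 24 animals, so a gene's value covers its listed transcripts and not all of its RNA. The libraries summed to 351119 to 415572 FPKM each, and their depth estimated from the steps between low values was 32.9 to 40.8 M reads (M for mega). In high IMF animal 7 and low IMF animal 10 the top 10 genes held 20.2% and 18.6% of FPKM, below the share in every other library. Of the 6 skeletal muscle markers ACTA1, CKM and DES were above 1000 FPKM in every animal, but the other 3 were far lower. MB, the myoglobin gene, was listed at 0 to 1.04 FPKM in high IMF and 0 to 2.35 FPKM in low IMF animals. The sarcomere gene TTN was at 0.174 to 8.91 FPKM in high IMF and 1.75 to 19.4 FPKM in low IMF (log2 fold change -0.96, unadjusted p = 0.0111, adjusted p = 0.524 by limma), and NEB at 3.32 to 26.2 FPKM in high IMF and 2.89 to 41.1 FPKM in low IMF. Summed adipocyte markers were 68.5 to 212 FPKM (median 115) in high IMF and 32.3 to 152 FPKM (median 58.0) in low IMF animals. All 9 of them were in the table and 8 had an unadjusted p under 0.05, each higher in high IMF. Summed fast-twitch markers were 15011 to 36615 FPKM in high IMF and 15828 to 31582 FPKM in low IMF animals, and slow-twitch markers were 2524 to 6488 FPKM in high IMF and 1372 to 7474 FPKM in low IMF animals. In whole tissue, fewer cells of a type and less RNA per cell cannot be told apart.

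The 37 genes took 7.98% to 10.9% of all FPKM in high IMF and 6.16% to 12.4% in low IMF animals. GAPDH, the glyceraldehyde 3-phosphate dehydrogenase of mid-glycolysis, was the most abundant at a mean of 20035 FPKM over 24 animals. ALDOA, the muscle aldolase, followed at 7670 FPKM, then ENO3, the muscle enolase, at 2964 FPKM, LDHA at 2126 FPKM and PGM1 at 2045 FPKM. GAPDH exceeded ALDOA, and ALDOA exceeded ENO3, in all 24 animals, and ENO3 exceeded LDHA in 22. LDHA exceeded PGM1 in 14 animals only, so the order of these neighbours was not fixed between animals. Next came PFKM at 837 FPKM, GPI at 766, PGK1 at 663, PGAM2 at 442 and TPI1 at 326 FPKM, with PFKM above GPI in 16 animals and PGAM2 above TPI1 in 16. At the other end PGM2, a second phosphoglucomutase, averaged 0.611 FPKM, which was 35.5 to 162 estimated reads per library. PHKG2, PFKP, HK1 and ALDOC, at means of 1.49, 1.43, 3.10 and 3.22 FPKM, were also low, and all 37 genes passed the filter of a mean of 0.5 FPKM.

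**Figure D1:**
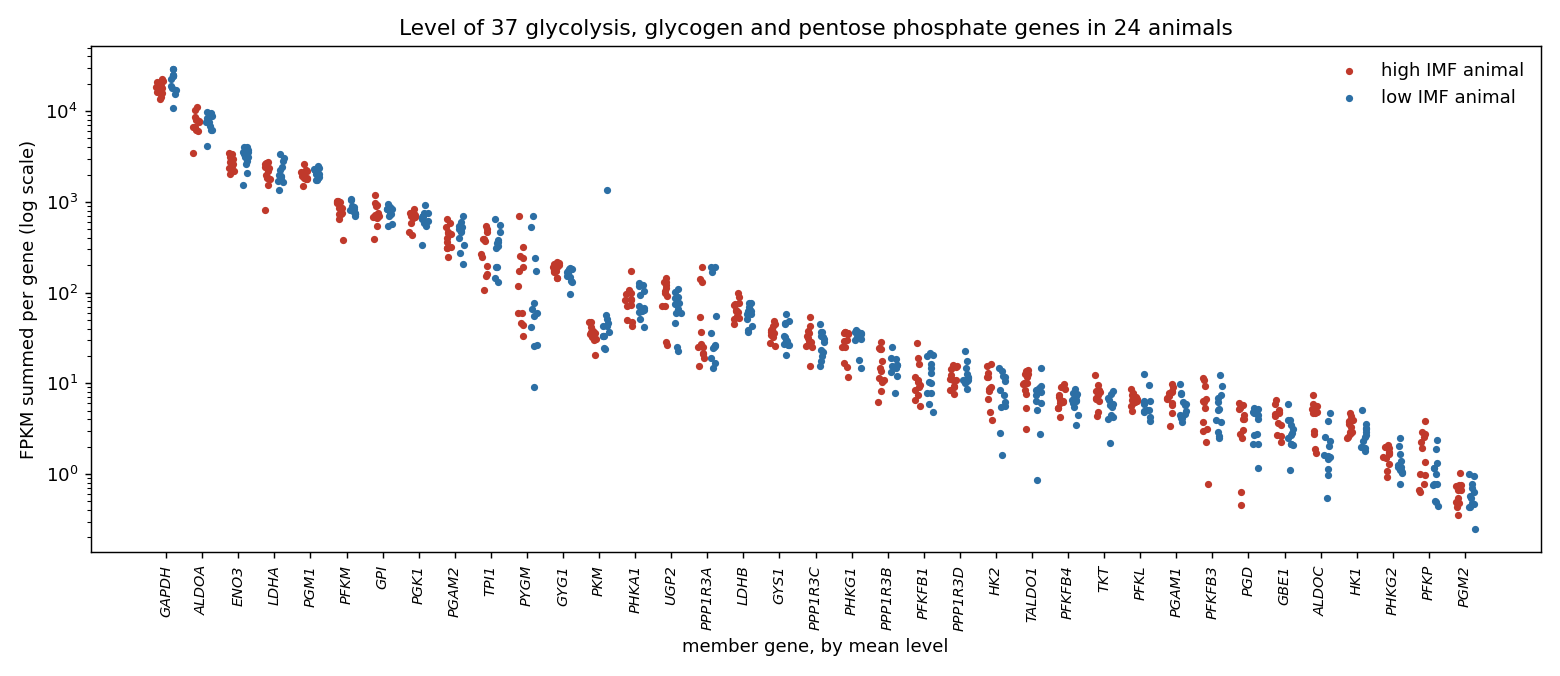
FPKM summed per gene on a log scale for the 37 genes, ordered by mean level, 1 point per animal with 12 high IMF animals left of 12 low IMF animals in each column. Levels run from a mean of 20035 FPKM for GAPDH to 0.611 FPKM for PGM2, and 1 low IMF animal stands alone in PKM at 1334 FPKM.

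The question of the design was which genes differ in muscle between animals of much and little intramuscular fat. No member of the 37 differed between high and low IMF by limma with Benjamini-Hochberg adjustment over all 11702 genes tested, in either direction; among all genes 0.0427% were called higher and 0.00855% lower. At an unadjusted p under 0.05, 6 of the 37 (16.2%) were higher in high IMF, against 6.79% of all genes, and 0 were lower, against 0.906% of all genes. These 6 were ALDOC, TKT, GBE1, PFKP, GYG1 and HK1. With 1 animal left out, ALDOC, TKT and GBE1 stayed under 0.05 in all 24 fits, GYG1 in 14, PFKP in 12 and HK1 in 10. A positive log2 fold change was seen in 20 of 37 (54.1%), against 73.4% of all genes, and the median log2 fold change was 0.020 for the 37 and 0.077 for all genes. With libraries rescaled by trimmed mean of M values (TMM), 3 of 37 (8.11%) were higher at an unadjusted p under 0.05, against 2.83% of all genes, and 0 were lower, against 2.30%. The 3 were ALDOC, TKT and GBE1, while PFKP, HK1 and GYG1 had an unadjusted limma p of 0.0710, 0.0948 and 0.288 with TMM scaling. That scaling gave 330 genes higher and 269 lower in all, in place of 794 and 106, and 16 of the 37 were positive, against 50% of all genes, with a median of -0.082.

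**Figure D2:**
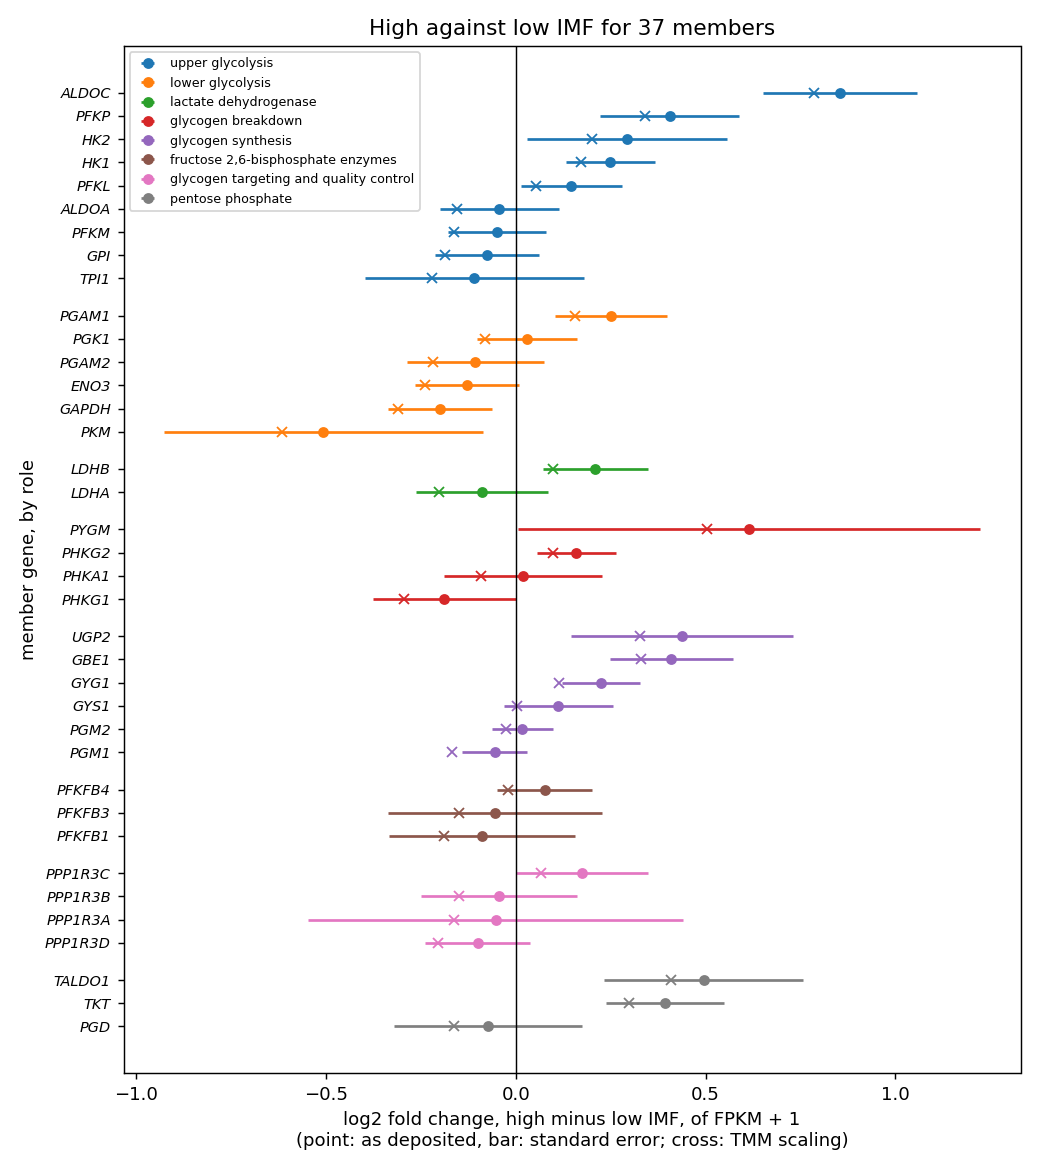
Log2 fold change of FPKM + 1, high minus low IMF, for the 37 genes grouped by role, with points and standard error bars from the limma fit of 12 against 12 animals and crosses after TMM scaling. ALDOC stands farthest right at 0.85, and most crosses lie left of their points.

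Upper glycolysis, from hexokinase to triose phosphate isomerase, was represented by 9 genes, of which 5 were positive with a median log2 fold change of 0.15 (0.053 with TMM scaling). ALDOC, the aldolase isozyme best known from brain, had the smallest p of the 37. It lies on chromosome 12 at 44823014 to 44848483 (Sscrofa11.1, as for all positions here). The lowest, median and highest values were 1.72, 4.76 and 7.53 FPKM in high IMF animals, against 0.548, 1.59 and 4.68 FPKM in low IMF animals. Every high IMF animal was above the median of low IMF and every low IMF animal below the median of high IMF, while the ranges overlapped. The means were 4.41 ± 1.73 FPKM in high IMF and 2.02 ± 1.19 FPKM in low IMF (SD, n = 12 each). The limma log2 fold change was 0.85 (SE 0.203, unadjusted p = 0.000279, adjusted p = 0.172). Without low IMF animal 10, which was the highest of its group, it was 0.94 and passed the threshold (adjusted p = 0.0339), and array weights gave 0.95 (adjusted p = 0.0312). That animal was also the highest of low IMF in the adipocyte markers ADIPOQ (25.1 FPKM), FABP4 (93.6 FPKM), CIDEC, CIDEA, PLIN1 and ADIG. In LEP, PPARG and THRSP another low IMF animal was highest. Low IMF animal 10 also had the lowest top 10 share of all libraries (18.6%). Of all 24 animals it was highest in 6 and lowest in 4 of the 37 genes. Without it more genes were called higher among all genes too, as the closing section gives, so the change was not particular to ALDOC. Over the 24 fits that leave out 1 animal, the adjusted p of ALDOC ran from 0.0339 to 0.343.

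The ALDOC signal came from 2 transcripts of unequal make. One, with 33 exons, runs from 44823374 to 44848483 and spans SPAG5, a mitotic spindle gene next to ALDOC in RefSeq; it held 65.3% of ALDOC FPKM. Its lowest, median and highest values were 0.917, 2.95 and 4.83 FPKM in high IMF, against 0.241, 0.963 and 3.56 FPKM in low IMF. By limma over all 21405 transcripts its log2 fold change was 0.82 (unadjusted p = 0.000859, adjusted p = 0.352). The other, with 8 exons, ends within ALDOC. It had 0.112, 1.10 and 5.13 FPKM in high IMF, against 0.307, 0.666 and 1.67 FPKM in low IMF. On this transcript alone, a comparison chosen after seeing the data, the log2 fold change was 0.32 (SE 0.204, unadjusted p = 0.125, adjusted p = 0.835). How far the reads of the 33-exon transcript came from ALDOC and how far from SPAG5 was not tested.

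**Figure D3:**
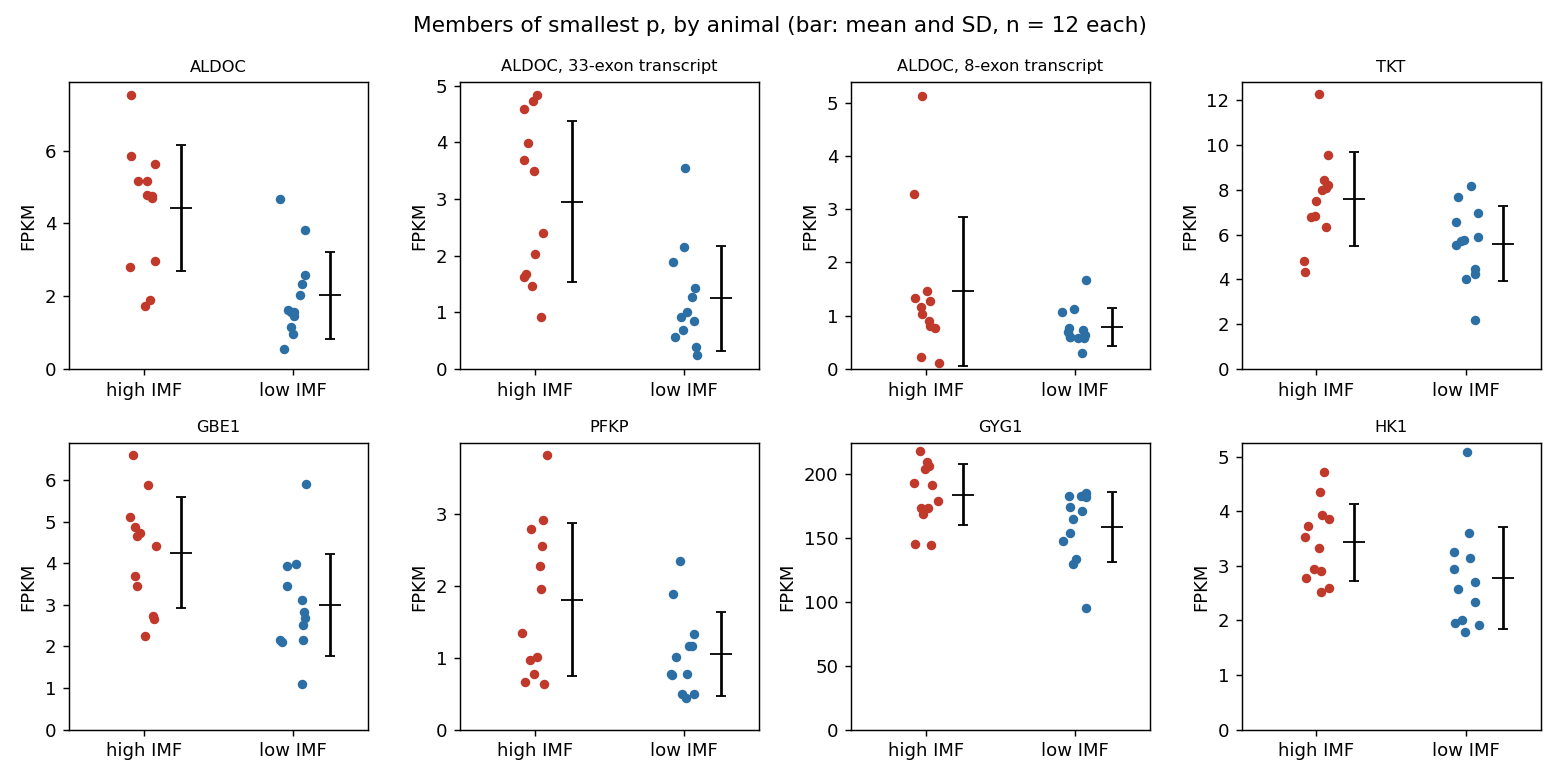
FPKM per animal for the 6 genes with an unadjusted p under 0.05 and for both ALDOC transcripts, 12 high IMF animals left and 12 low IMF animals right in each panel, with the mean and SD as bars. In ALDOC each of the 12 high IMF animals is higher than the low IMF median of 1.59 FPKM, and the groups overlap in every panel.

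PFKP, the platelet-type phosphofructokinase, was at 0.629, 1.65 and 3.82 FPKM (lowest, median, highest) in high IMF, against 0.441, 0.892 and 2.35 FPKM in low IMF. The log2 fold change was 0.41 (SE 0.183, unadjusted p = 0.0360, adjusted p = 0.627 by limma). Animal identifiers in the labels start with 4 digits that take 2 values, which splits the animals into 2 sets of 6 high and 6 low IMF animals each; the meaning of the digits is not stated. PFKP had a log2 fold change of 0.87 in the set of the smaller number and -0.060 in the other, a difference of -0.93 with an unadjusted limma p = 0.00948 and an adjusted p = 0.998. It was the 1 gene of the 37 with an unadjusted p under 0.05 for that difference, and 385 of 11702 genes had one. HK1, the hexokinase of most tissues, was at 2.52, 3.43 and 4.72 FPKM in high IMF, against 1.79, 2.64 and 5.08 FPKM in low IMF. Its log2 fold change was 0.25 (unadjusted p = 0.0447, adjusted p = 0.643 by limma), and 10 of 12 high IMF animals exceeded the low IMF median. HK2, the insulin-responsive hexokinase of muscle, was at 3.92, 8.99 and 16.2 FPKM in high IMF, against 1.61, 8.01 and 14.9 FPKM in low IMF, with a log2 fold change of 0.29 (unadjusted p = 0.276). PFKL, the liver-type phosphofructokinase, was at 4.96 to 8.64 FPKM in high IMF and 3.86 to 12.5 FPKM in low IMF. For PFKL 11 of 12 high IMF animals exceeded the low IMF median, and the log2 fold change was 0.15 (unadjusted p = 0.279), or -0.13 on its reference transcript alone.

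The abundant muscle isozymes of this stretch lay close together in the groups. ALDOA had 3468, 7750 and 11145 FPKM in high IMF, against 4113, 7958 and 9827 FPKM in low IMF, and its lowest animals were high IMF animal 10 and low IMF animal 10. Its log2 fold change was -0.043 (SE 0.157, unadjusted p = 0.785). It was -0.31 in the set of the smaller number and 0.22 in the other. PFKM, the muscle phosphofructokinase, had 382, 853 and 1031 FPKM in high IMF, against 701, 810 and 1086 FPKM in low IMF, with a log2 fold change of -0.05 (SE 0.129). Its sum includes a short transcript on the opposite strand, at 79.2 ± 36.0 FPKM in high IMF and 76.9 ± 19.7 FPKM in low IMF (SD, n = 12 each), whose reads cannot be told apart from those of PFKM unless strand was kept. GPI, which interconverts glucose and fructose 6-phosphate, had medians of 702 FPKM in high IMF and 831 FPKM in low IMF, and TPI1, triose phosphate isomerase, had medians of 319 FPKM in high IMF and 337 FPKM in low IMF. The GPI log2 fold change was -0.075 and the TPI1 log2 fold change -0.11, with unadjusted p of 0.588 and 0.708.

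Lower glycolysis, from GAPDH to pyruvate kinase, was represented by 6 genes, of which 2 were positive, with a median log2 fold change of -0.12 (1 and -0.23 with TMM scaling). GAPDH had 13559, 18770 and 22866 FPKM in high IMF, against 10866, 23413 and 29157 FPKM in low IMF. None of the 12 high IMF animals reached the low IMF median of GAPDH, yet the lowest value of all was that of low IMF animal 10. The means were 18413 ± 2881 FPKM in high IMF and 21658 ± 5633 FPKM in low IMF (SD, n = 12 each). Its limma log2 fold change was -0.20 (SE 0.137, unadjusted p = 0.157, adjusted p = 0.738), and -0.31 with TMM scaling. Without low IMF animal 10 it was -0.29, with an unadjusted p = 0.0205 and an adjusted p = 0.258. Within the set of the smaller number it was -0.43, and 0.027 in the other set. An isoform added by the assembly, which spans 8 other RefSeq genes, held 34.6% of GAPDH FPKM, and on reference transcripts alone the log2 fold change was -0.078.

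ENO3 had 2034, 2843 and 3432 FPKM in high IMF, against 1523, 3264 and 4023 FPKM in low IMF, with a log2 fold change of -0.13 (SE 0.137, unadjusted p = 0.361 by limma). On reference transcripts alone it was 0.058. The 2 added isoforms of ENO3 held 75.7% of its FPKM, the larger one 71.1%, and both span the neighbouring gene SPAG7. One reference transcript of ENO3, with 11 exons and 0.341% of its FPKM, also spans SPAG7 and had a log2 fold change of -0.76 (unadjusted p = 0.0138, adjusted p = 0.644 by limma over transcripts). PGAM1, the widely expressed phosphoglycerate mutase, had 3.41, 7.08 and 9.75 FPKM in high IMF, against 3.70, 5.36 and 9.92 FPKM in low IMF (log2 fold change 0.25, unadjusted p = 0.102). PGAM2, its muscle paralog, had 246, 423 and 651 FPKM in high IMF, against 205, 491 and 699 FPKM in low IMF (log2 fold change -0.11, unadjusted p = 0.561, or 0.073 on its reference transcript alone). For PGAM1 10 of 12 high IMF animals exceeded the low IMF median, and for PGAM2 3 did. PGK1, phosphoglycerate kinase, had medians of 691 FPKM in high IMF and 684 FPKM in low IMF.

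PKM, pyruvate kinase, had 20.6, 35.6 and 47.7 FPKM in high IMF, against 23.9, 39.5 and 1334 FPKM in low IMF. These values cover its listed transcripts only, and whether its main isoform is among them was not tested. The value of 1334 FPKM belonged to low IMF animal 5, and the other 23 animals lay at 20.6 to 56.3 FPKM. The log2 fold change was -0.51 (SE 0.419, unadjusted p = 0.238 by limma) with that animal and -0.08 (SE 0.144, unadjusted p = 0.584) without it. The low IMF mean without it was 38.5 ± 10.3 FPKM, against 36.0 ± 7.45 FPKM in high IMF (SD). LDHA, the lactate dehydrogenase subunit of fast muscle, had 804, 2092 and 2768 FPKM in high IMF, against 1366, 1956 and 3363 FPKM in low IMF (log2 fold change -0.09, unadjusted p = 0.609). LDHB, the subunit of heart and oxidative muscle, had 45.0, 63.3 and 99.9 FPKM in high IMF, against 36.9, 59.9 and 76.8 FPKM in low IMF (log2 fold change 0.21, unadjusted p = 0.144). The LDHB sum includes a transcript on chromosome 2, away from the gene on chromosome 5, at 4.03 ± 1.90 FPKM in high IMF and 4.08 ± 1.59 FPKM in low IMF (SD, n = 12 each).

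Glycogen breakdown was represented by 4 genes, of which 3 were positive, with a median log2 fold change of 0.090 (2 and 0.0032 with TMM scaling). PYGM, the muscle glycogen phosphorylase, varied 76.9-fold between animals. It had 33.4, 146 and 694 FPKM in high IMF, against 9.01, 63.0 and 693 FPKM in low IMF. 3 animals stood highest, high IMF animal 2 and low IMF animals 7 and 8, from 531 FPKM upward, and low IMF animal 5 was lowest. In low IMF animals 7 and 8 the longer of its 2 transcripts reached 230 and 278 FPKM, against 1.3 to 42.6 FPKM in the other 22. The log2 fold change of PYGM was 0.61 with an SE of 0.608 (unadjusted p = 0.322 by limma). It was -0.033 in the set of the smaller number and 1.26 in the other.

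Phosphorylase kinase was represented by its muscle alpha subunit PHKA1 and the catalytic subunits PHKG1, of muscle, and PHKG2, best known from liver. PHKA1 had 42.7, 83.0 and 172 FPKM in high IMF, against 41.3, 69.3 and 129 FPKM in low IMF. PHKG1 had 11.7, 29.7 and 37.2 FPKM in high IMF, against 14.9, 32.5 and 38.5 FPKM in low IMF (log2 fold change -0.19, unadjusted p = 0.325). In PHKG1 the lowest 5 animals lay at 11.7 to 18.3 FPKM and the other 19 at 25.4 to 38.5 FPKM. The lowest 5 were high IMF animals 3, 7 and 10 and low IMF animals 2 and 7. The gap above them was 0.46 on the log2(FPKM + 1) scale, smaller than the largest gaps of ALDOA (0.57), TALDO1 (0.54) and PGD (0.52). Both PHKG1 transcripts span the neighbouring gene SUMF2. PHKG2 had 0.922, 1.70 and 2.08 FPKM in high IMF, against 0.777, 1.20 and 2.51 FPKM in low IMF (log2 fold change 0.16, unadjusted p = 0.137), and 10 of 12 high IMF animals exceeded the low IMF median.

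Glycogen synthesis was represented by 6 genes, of which 5 were positive, with a median log2 fold change of 0.17 (4 and 0.058 with TMM scaling, 3 and 0.047 with upper-quartile scaling). GYG1, glycogenin, the primer on which a glycogen particle is built, had 144, 185 and 218 FPKM in high IMF, against 95.3, 167 and 185 FPKM in low IMF. For GYG1 10 of 12 high IMF animals exceeded the low IMF median and 0 of 12 low IMF animals exceeded the high IMF median. The log2 fold change was 0.22 (SE 0.102, unadjusted p = 0.0372, adjusted p = 0.628 by limma), and 0.11 with TMM scaling (unadjusted p = 0.288). An added isoform with 7 exons held 83.4% of GYG1, and a reference transcript with 8 exons had the larger fold change, 0.39 (unadjusted p = 0.0103, adjusted p = 0.609 by limma over transcripts). All 12 high IMF animals exceeded the low IMF median of that reference transcript, at 24.9 to 41.2 FPKM, against 13.3 to 35.1 FPKM in low IMF.

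GBE1, the glycogen branching enzyme, had 2.24, 4.53 and 6.61 FPKM in high IMF, against 1.11, 2.75 and 5.90 FPKM in low IMF, all of it in 1 added isoform on chromosome 13. Its log2 fold change was 0.41 (SE 0.162, unadjusted p = 0.0181, adjusted p = 0.557 by limma), 0.48 in the set of the smaller number and 0.34 in the other. The unadjusted p stayed under 0.05 whichever of the 24 animals was left out, and the highest low IMF value was again that of animal 10. GYS1, the muscle glycogen synthase, had 26.0, 37 and 48.3 FPKM in high IMF, against 20.3, 31.2 and 58.4 FPKM in low IMF (log2 fold change 0.11, unadjusted p = 0.445). PGM1, the main phosphoglucomutase, was the steadiest of the 37, with a coefficient of variation of 13% over 24 animals, at 1486, 1998 and 2609 FPKM in high IMF, against 1729, 2048 and 2498 FPKM in low IMF. PGM2 had 0.354, 0.608 and 1.04 FPKM in high IMF, against 0.245, 0.555 and 1.01 FPKM in low IMF.

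UGP2, which makes the UDP-glucose that glycogen synthase uses, had 26.2, 101 and 145 FPKM in high IMF, against 22.5, 70.5 and 110 FPKM in low IMF. For UGP2 10 of 12 high IMF animals exceeded the low IMF median, and the log2 fold change was 0.44 (SE 0.293, unadjusted p = 0.147 by limma). In UGP2 4 animals, high IMF animals 4 and 11 and low IMF animals 5 and 11, lay at 22.5 to 28.3 FPKM, and the other 20 at 46.3 to 145 FPKM. This split lay in an added isoform that held 77.3% of UGP2, since the reference transcripts together ran from 15.8 to 30.5 FPKM in high IMF and 10.3 to 26.2 FPKM in low IMF. Among the reference transcripts of UGP2 the smallest p was that of one at 3.56 ± 0.954 FPKM in high IMF and 2.49 ± 0.695 FPKM in low IMF (SD, n = 12 each), with a log2 fold change of 0.38 (unadjusted p = 0.00623, adjusted p = 0.558 by limma over transcripts). Another had a log2 fold change of 0.34 (unadjusted p = 0.0224, adjusted p = 0.710).

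**Figure D4:**
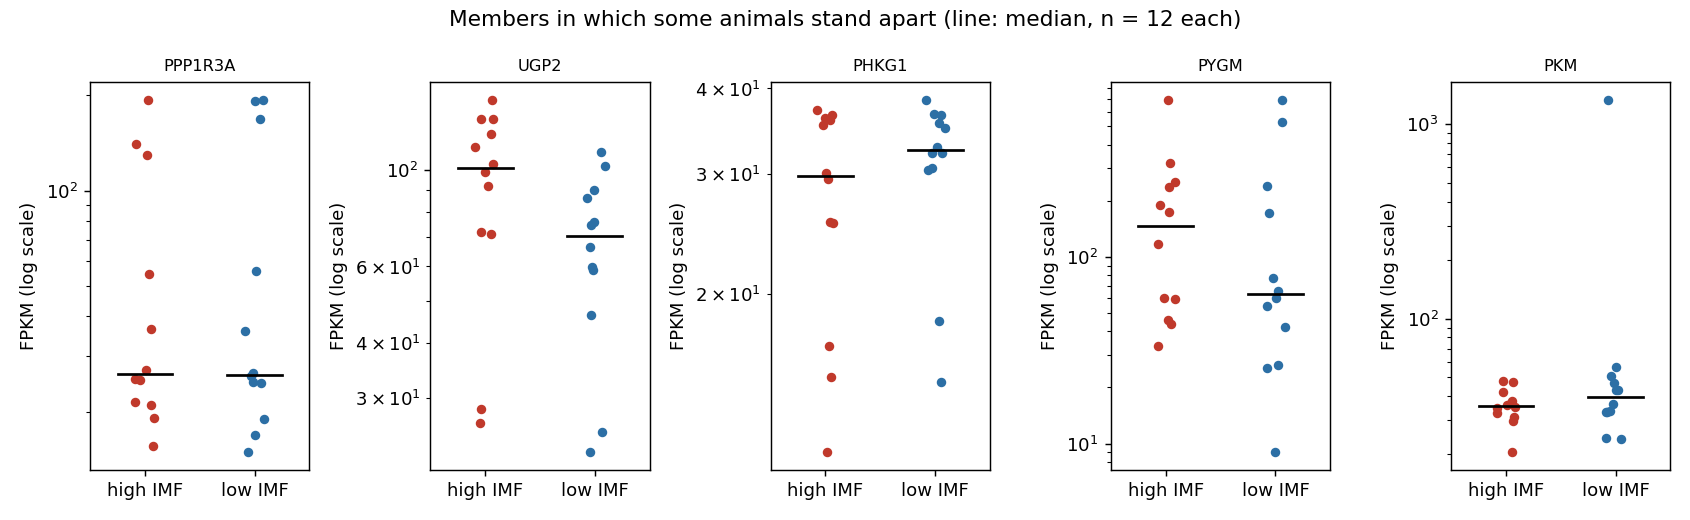
FPKM per animal on a log scale for 5 genes in which some animals stand apart, 12 high IMF animals left and 12 low IMF animals right, with the group median as a line. The animals that stand apart come from both groups in PPP1R3A, UGP2, PHKG1 and PYGM, and from low IMF alone, as 1 animal at 1334 FPKM, in PKM. The largest log2 gap, leaving aside a lone animal at either end, was 1.21 in PPP1R3A, 0.74 in PYGM, 0.69 in UGP2 and 0.46 in PHKG1. How common gaps under 1 are over all genes was not counted.

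Of the targeting subunits that bring protein phosphatase 1 to glycogen, 4 were among the 37 genes, with 1 positive and a median log2 fold change of -0.048 (-0.16 with TMM scaling). PPP1R3F and PPP1R3G, at means of 1.80 and 2.52 FPKM, were counted among the other pathway genes. PPP1R3A, the muscle subunit, had 15.6, 26.2 and 193 FPKM in high IMF, against 14.9, 26.2 and 193 FPKM in low IMF. In this gene 6 animals stood apart at 129.9 to 193 FPKM, high IMF animals 1, 3 and 7 and low IMF animals 4, 11 and 12, and the other 18 lay at 14.9 to 55.6 FPKM. In its 4-exon reference transcript these 6 had 109 to 164 FPKM and the other 18 had 1.66 to 35.2 FPKM. Of the 6 animals, 5 belonged to the identifier set of the larger number. Leaving aside a lone animal at either end, a gap of at least 1 on the log2 scale between neighbouring animals was found in this gene alone among the 37 (2.70%). The same held for 2.14% of all genes. The IMF log2 fold change of PPP1R3A was -0.053 with an SE of 0.493.

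PPP1R3B, a targeting subunit first known from liver, had medians of 14.3 FPKM in high IMF and 15.5 FPKM in low IMF. PPP1R3C, a targeting subunit of wide expression, had 15.7, 30.5 and 53.9 FPKM in high IMF, against 15.6, 29.4 and 45.6 FPKM in low IMF, with a log2 fold change of 0.17 (unadjusted p = 0.326). PPP1R3D had medians of 11.06 FPKM in high IMF and 11.2 FPKM in low IMF. Of the enzymes that make and break fructose 2,6-bisphosphate, the activator of phosphofructokinase, 3 were taken into the gene list, with 1 positive log2 fold change (0 with TMM scaling). PFKFB2, at a mean of 1.22 FPKM, was counted among the other pathway genes. Its log2 fold change was 0.25 (unadjusted p = 0.0835 by limma). PFKFB1 had 5.66, 9.99 and 27.9 FPKM in high IMF, against 4.79, 11.7 and 21.7 FPKM in low IMF, with 4 added isoforms that together held 82.6% of it. PFKFB3 had 0.777, 5.74 and 11.6 FPKM in high IMF, against 2.52, 5.2 and 12.4 FPKM in low IMF. PFKFB4 had medians of 6.47 FPKM in high IMF and 6.58 FPKM in low IMF. The unadjusted p of these 3 was 0.719, 0.848 and 0.550.

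The pentose phosphate pathway was represented by 3 genes, of which 2 were positive, with a median log2 fold change of 0.39 (0.30 with TMM scaling). TKT, transketolase, had 4.34, 7.74 and 12.3 FPKM in high IMF, against 2.18, 5.74 and 8.17 FPKM in low IMF. For TKT 10 of 12 high IMF animals exceeded the low IMF median, and 1 of 12 low IMF animals exceeded the high IMF median. Its log2 fold change was 0.39 (SE 0.155, unadjusted p = 0.0174, adjusted p = 0.547 by limma), 0.14 in the set of the smaller number and 0.65 in the other. On its reference transcript alone the TKT log2 fold change was 0.34 (unadjusted p = 0.152 by limma). TALDO1, transaldolase, had 3.15, 10.004 and 14.1 FPKM in high IMF, against 0.871, 7.71 and 14.6 FPKM in low IMF (log2 fold change 0.50, SE 0.262, unadjusted p = 0.0704). The lowest TALDO1 value was that of low IMF animal 3, which was lowest in 7 of the 37 genes, as was high IMF animal 10. PGD, 6-phosphogluconate dehydrogenase, which yields NADPH, had 0.453, 4.0 and 6.08 FPKM in high IMF, against 1.18, 4.3 and 5.38 FPKM in low IMF (log2 fold change -0.074, unadjusted p = 0.766).

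The adipocyte markers given above were higher in the same group as the 6 genes with an unadjusted p under 0.05. With the adipocyte marker level of each animal as a further term in limma, the log2 fold change was 0.098 for ALDOC (unadjusted p = 0.653), -0.032 for TKT (0.871), 0.0042 for GBE1 (0.984), 0.12 for GYG1 (0.429) and -0.19 for HK1 (0.152). For PFKP it was 0.66 (unadjusted p = 0.0197, adjusted p at least 0.988 for all 37). In that fit 16 of the 37 genes had the other sign and 1 was higher at an unadjusted p under 0.05 (2.70%, against 1.60% of all genes). Since the marker level itself differs between the groups, such a term also takes up the IMF class, and the shares of the 2 cannot be told apart. With the slow-fibre marker level as a term, 37 of 37 kept their sign, and the ALDOC log2 fold change was 0.85. The slow-twitch markers had a median log2 fold change of 0.051, so this term had little group difference to take up. A role of fibre type was not tested.

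Isozyme shares do not depend on how a library is scaled, and 9 could be formed from listed genes. ALDOA made up 99.940% ± 0.025 of ALDOA and ALDOC FPKM in high IMF and 99.969% ± 0.029 in low IMF (SD, n = 12 each). This share draws on the ALDOC sum of the gene comparison above, so it is no separate result. Of that sum, 65.3% lay in the transcript that spans SPAG5. The other ALDOC transcript had a log2 fold change of 0.32 (unadjusted p = 0.125 by limma). The ALDOA share was below the low IMF median in every one of the 12 high IMF animals. The two-sided permutation p was 0.0147 with 100000 resamples, and 0.133 after adjustment over the 9 shares, so it did not pass; without low IMF animal 10 the adjusted p was 0.00243. Both PHKG1 transcripts span SUMF2, and how far the PHKG1 share holds reads of that gene was not tested. PHKG1 made up 93.7% ± 3.24 of both catalytic subunits in high IMF and 95.4% ± 2.76 in low IMF (permutation p = 0.197), with 11 of 12 high IMF animals below the low IMF median. PGAM2 made up 98.2% ± 0.811 of both mutases in high IMF and 98.5% ± 1.11 in low IMF, with 10 of 12 high IMF animals below that median (permutation p = 0.447). LDHA was 96.6% ± 1.36 of both subunits in high IMF and 97.2% ± 1.19 in low IMF. PFKM, with the opposite-strand transcript in its sum, was 98.9% ± 0.550 of the phosphofructokinases in high IMF and 99.1% ± 0.392 in low IMF. HK2 was 72.3% ± 10.4 of both hexokinases in high IMF and 71.7% ± 12.2 in low IMF. PPP1R3A was 41.2% ± 19.2 of the summed PPP1R3A to PPP1R3D in high IMF and 42.7% ± 20.6 in low IMF. PFKFB1 was 47.4% ± 11.5 of the summed PFKFB1, PFKFB3 and PFKFB4 in high IMF and 49.7% ± 14.7 in low IMF. PPP1R3F, PPP1R3G and PFKFB2 were left out of these sums. PGM1 was 99.97% of both mutases in each group. The adjusted permutation p of these other 8 shares ran from 0.631 to 0.899.

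Over the 24 animals, 8 pairs of isozymes or partners were correlated on log2(FPKM + 1), each with permutation p and adjustment over the 8. PGAM1 and PGAM2, the widely expressed and the muscle mutase, moved in opposite directions, with Pearson r = -0.546 (permutation p = 0.00545, adjusted p = 0.0226) and Spearman rho = -0.532 (permutation p = 0.00755, adjusted p = 0.0302). Leaving out the 2 animals farthest on PGAM1, which were high IMF animal 9 and low IMF animal 10, r was -0.441. It was -0.392 within high IMF and -0.664 within low IMF, and -0.545 and -0.549 within the identifier sets. ALDOA and ENO3, abundant partners of fast muscle, moved together with r = 0.552 (permutation p = 0.00566, adjusted p = 0.0226) and rho = 0.558 (permutation p = 0.00527, adjusted p = 0.0302). Leaving out both animals numbered 10, that r was 0.560, but it was 0.207 within high IMF and 0.858 within low IMF, a difference that was not tested. Within the identifier sets it was 0.435 and 0.799. The other 6 pairs had adjusted permutation p of 0.222 to 0.634 for r. Among these HK1 with HK2 had r = 0.361, LDHA with LDHB had r = -0.203 and PFKM with PYGM had r = -0.134. Both genes of a pair come from the same library and share its scaling.

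**Figure D5:**
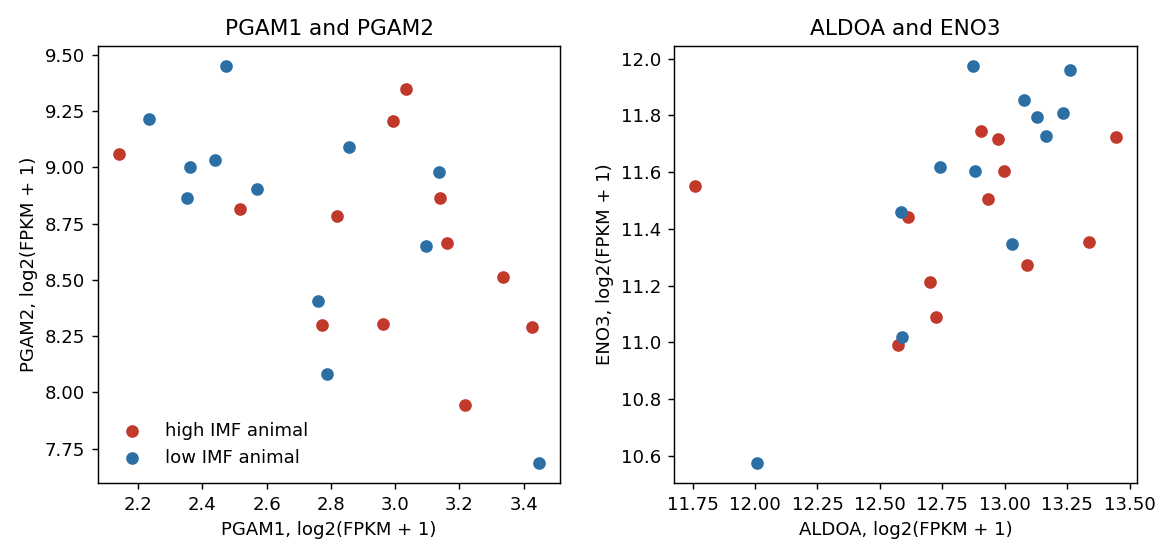
Log2(FPKM + 1) of PGAM2 against PGAM1 and of ENO3 against ALDOA, 1 point per animal, 12 high IMF and 12 low IMF. The mutases slope downward with r = -0.546 and the second pair upward with r = 0.552.

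Of 122 transcripts of the 37 genes, 0 passed the limma test over 21405 transcripts in either direction, against 0.0187% of all transcripts called higher and 0% called lower. At an unadjusted p under 0.05, 9 (7.38%) were higher, against 5.25% of all transcripts, and 2 (1.64%) were lower, against 1.09%. Both lower ones belonged to ENO3, and 3 of the 9 higher ones belonged to PFKM, whose sum had the log2 fold change of -0.05 given above. These 3 held at most 1.43%, 2.01% and 1.28% of PFKM FPKM in any animal. With TMM scaling their unadjusted limma p was 0.0414, 0.134 and 0.111. In the authors' deposited table, 4 of the 122 transcripts (3.28%) had a p-value under 0.05 and were higher in high IMF, against 3.84% of all transcripts, and 3 (2.46%) were higher in low IMF, against 2.55%. The authors' deposited table gives its fold as low over high IMF, 0.617 for the 33-exon ALDOC transcript with a p-value of 0.004786, and the smallest of its q-values for any of the 122 is 0.293. A single added isoform held over 25% of the FPKM of ENO3, GAPDH, GBE1, GYG1, PFKFB1, PFKFB3, PFKL, PGD, PHKA1, PPP1R3A, PPP1R3B, TKT and UGP2, so the levels of these genes depend on the assembly. Summed over all added isoforms of a gene, the share ran from 26.8% in PPP1R3A to 100% in GBE1 and PGD, with 90.3% in PFKL, 60.8% in TKT, 57.8% in PHKA1, 52.1% in PFKFB3 and 51.4% in PPP1R3B.

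The 6 symbols ENO1, PYGB, PHKA2, PHKB, STBD1 and EPM2A were not matched by name. For 4 of them a locus covers the RefSeq gene by at least 80% of both lengths, a placement chosen after seeing the data. At the position of PHKB, the beta subunit of phosphorylase kinase, a locus on chromosome 6 (36993533 to 37193600) had 59.4, 85.1 and 118 FPKM in high IMF, against 46.2, 73.4 and 106 FPKM in low IMF. At ENO1, the widely expressed enolase, a locus on chromosome 6 (69385486 to 69401147) averaged 51.0 ± 9.998 FPKM in high IMF and 50.8 ± 5.07 FPKM in low IMF (SD, n = 12 each). The locus at STBD1, which encodes a glycogen-binding protein, averaged 102 ± 30.5 FPKM in high IMF and 103 ± 36.3 FPKM in low IMF. At EPM2A, the glycogen phosphatase laforin, the file names its transcript FBXO30, at 17.4 ± 4.62 FPKM in high IMF and 16.7 ± 4.90 FPKM in low IMF. The unadjusted limma p of these 4 ran from 0.166 to 0.933.

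Of 70 other genes of these pathways, 46 were in the table, and 35 of the 46 (76.1%, against 73.4% of all genes) had a positive log2 fold change (22 with TMM scaling), with a median of 0.087. None passed after adjustment, while at an unadjusted p under 0.05 by limma 3 were higher (6.52%, against 6.79% of all genes) and 1 lower (2.17%, against 0.906%). PC, the pyruvate carboxylase that fat cells use for fatty acid synthesis, had 17.9, 29.5 and 44.4 FPKM in high IMF, against 9.70, 20.8 and 31.2 FPKM in low IMF (log2 fold change 0.46, unadjusted p = 0.00685, adjusted p = 0.459). On reference transcripts alone the PC log2 fold change was -0.72. SLC16A3, the lactate exporter of glycolytic fibres, had 3.47, 9.38 and 58.4 FPKM in high IMF, against 6.16, 26.8 and 54.2 FPKM in low IMF (log2 fold change -1.02, unadjusted p = 0.0167, adjusted p = 0.547). For SLC16A3 3 of 12 high IMF animals exceeded the low IMF median. MLXIPL, the carbohydrate-responsive transcription factor ChREBP, averaged 0.861 ± 0.585 FPKM in high IMF and 0.437 ± 0.288 FPKM in low IMF (log2 fold change 0.34, unadjusted p = 0.0173). RPIA, ribose 5-phosphate isomerase, averaged 20.5 ± 3.62 FPKM in high IMF and 17.4 ± 4.04 FPKM in low IMF (0.24, unadjusted p = 0.0448). The next by p were SLC16A1, the other lactate carrier, with a log2 fold change of 0.32, and PDHB, of pyruvate dehydrogenase, with 0.16 (unadjusted p = 0.0515 and 0.0701).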

How the data were processed

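The authors deposited 1 table with an FPKM value per transcript and animal; the unit was inferred from the values and the column names. Per the submitters' processing notes, HISAT2 2.0.5, StringTie 1.3.3 and the genome Sscrofa11.1 were used, in roles the notes do not state. Per the file headers the table also holds the authors' fold change and p-value and q-values per transcript, computed by a route that the sources do not name. The fold ratio is low over high IMF, by its sign in 328 of 328 transcripts with a deposited p-value under 0.01.

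FPKM was summed per symbol, or per locus without one, to 11954 genes. limma 3.58.1 (R 4.3.3; trend, robust) was fitted to log2(FPKM + 1) on 11702 genes averaging 0.5 FPKM or more, with Benjamini-Hochberg adjustment and a threshold of 0.05; such fold changes understate those of low genes. No count model was used; TMM and upper-quartile factors were computed on the FPKM table. Shares and correlations used permutation tests (Python 3.11.15, numpy 2.4.6, scipy 1.17.1). Scripts were tested on simulated data. Depth was estimated from low FPKM values multiplied by length, of which 71.5% to 80.8% lay within 0.05 base of a whole step, against 36.8% to 48.3% for the next best step; no interval for single values is given. Each library is 1 animal, numbered within its group in accession order. Reads shared between paralogs or overlapping genes were divided by the authors' assembly, and strand was not checked.

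The members, roles, lists, pairs and tests were chosen with earlier results of these data known. Named members are those with an unadjusted p under 0.05, filled up by p to 12, the most abundant of each role, and those in a share; GPI, TPI1, PGK1, PKM, PHKA1, GYS1 and PGD were named after their values were seen. Transcripts were named by the 6 smallest p and by added isoforms above 25% of their gene. RefSeq positions of the same build placed unmatched symbols and neighbours. The alternatives tried and their effect are given in the closing section.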

Additional observations from a re-analysis of the deposited data

How the results depend on the processing

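Over the 37 genes and all alternatives, 1419 of 1508 log2 fold changes kept their sign and 89 did not, 37 of them with 1 animal left out. The kept signs include settings that could not turn one. Another expression filter or plain moderation leaves the fold change of a gene as it was. So does a term for the identifier set, since the sets are balanced between the groups. In all, 27 genes turned sign in at least 1 setting, PHKA1 in 14 and PPP1R3A in 11. The 10 that turned in none were ALDOC, PKM, LDHB, PHKG1, GYG1, GBE1, UGP2, PPP1R3C, PPP1R3D and TALDO1. GBE1 has no reference transcript, so it was not fitted on reference transcripts alone and could not turn there. All 10 were fitted on the same animals, so their kept signs are no independent support. No paired analysis was possible because the labels give no replicate numbers. The cause of the following changes was not tested.

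Of the 37 genes, 1 was called higher with array weights (ALDOC) and 0 to 1 with 1 animal left out (1 without low IMF animal 10). Among all genes, those higher by limma were 3 with a mean of at least 5 FPKM, 22 with array weights, 16 without the pair of high IMF animal 7 and low IMF animal 10, 0 with the adipocyte level as a term, 0 in the identifier set of the smaller number and 0 in the other, and 3 to 28 with 1 animal left out (28 without low IMF animal 10, 8 without high IMF animal 2 or 9, 3 without high IMF animal 5). Those lower were 2 with either TMM or upper-quartile scaling, 2 without that pair, 2 with array weights, 0 with a pseudocount of 0.1, 0 in either set alone, 0 where animals sharing 9 identifier digits were cut to 1, and 0 with a term for the identifier set, the adipocyte level or the Y-linked EIF1AY level, and 0 to 3 with 1 animal left out. With the adipocyte level 187 genes were higher and 368 lower at an unadjusted p under 0.05, and 941 and 72 in the first set and 261 and 134 in the second.

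With the adipocyte level as a term, 16 of the 37 log2 fold changes turned sign: -0.19 for HK1, -0.07 for HK2, 0.040 for GPI, -0.056 for PFKL, 0.089 for ALDOA, 0.14 for GAPDH, -0.17 for PGAM1, 0.40 for PGAM2, 0.24 for ENO3, 0.017 for LDHA, -0.28 for PHKA1, -0.018 for PHKG2, -0.26 for GYS1, 0.068 for PGM1, -0.033 for PGM2 and -0.032 for TKT. Other pathway genes that turned were at -0.044 for PC, -0.023 for MLXIPL and -0.026 for RPIA. In the set of the smaller number 6 turned, to -0.072 for PGK1, -0.033 for PYGM, 0.035 for PFKFB1, 0.22 for PFKFB3, 0.49 for PPP1R3A and 0.15 for PPP1R3B. In the other set 8 turned, to -0.060 for PFKP, 0.22 for ALDOA, 0.027 for GAPDH, 0.031 for ENO3, -0.16 for PHKA1, -0.0095 for GYS1, -0.021 for PFKFB4 and 0.18 for PGD. On reference transcripts alone 4 of 35 turned, to -0.13 for PFKL, 0.073 for PGAM2, 0.058 for ENO3 and 0.20 for PFKFB1, and PC was at -0.72. With TMM scaling PGK1, PHKA1, PGM2 and PFKFB4 turned, and with upper-quartile scaling GYS1 too. With array weights PGK1 and PPP1R3A (0.079) turned, with the EIF1AY level PFKFB3, without that pair PGK1 and PGD, and with 1 animal per 9 digits PHKA1, GYS1, PGM2 and PPP1R3B. With 1 animal left out 12 genes turned: ALDOA ran from -0.12 to 0.055, LDHA from -0.15 to 0.028, PPP1R3A from -0.26 to 0.15, GPI from -0.14 to 0.0078, PFKM from -0.083 to 0.047, TPI1 from -0.22 to 0.018, PGK1 from -0.057 to 0.085, PHKA1 from -0.083 to 0.098, PGM2 from -0.015 to 0.047, PFKFB3 from -0.15 to 0.10, PPP1R3B from -0.13 to 0.060 and PGD from -0.17 to 0.066. Without high IMF animal 10 these included GPI, PFKM, ALDOA, TPI1 and LDHA. Of the shares, 1 passed without that pair (ALDOA, adjusted permutation p = 0.00549) and 0 to 1 with 1 animal left out (1 without low IMF animal 10). The ALDOA share draws on the ALDOC sum and is no result apart from it. In percentage points, high minus low IMF, the HK2 share turned to -0.44 without the pair and ran from -1.82 to 2.58 with 1 animal left out, the PPP1R3A share from -4.53 to 1.68, the PFKFB1 share turned to 3.90 on reference transcripts alone and the PGM1 share to 1.97e-05 with 1 animal per 9 digits. On the 8-exon ALDOC transcript alone, added after seeing the data, ALDOC was at 0.32.

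At an estimated 32.9 to 40.8 M reads, low genes such as PGM2 rest on few reads, and reads of genes joined in 1 transcript cannot be separated here.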
